A study of Homo sapiens with 43 samples.

Results

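The 45 genes described here are antiviral interferon-stimulated genes, taken by symbol from the 58780 Ensembl genes of each deposited file. All 45 were found. They were measured by sequencing of polyadenylated RNA in 43 libraries of 2 human cell lines, which fall into 22 groups. Of these, 39 came from GM12878, which are B cells immortalised with Epstein-Barr virus, and 4 from the liver cancer line HepG2. In a stimulus panel, GM12878 cells were held for 6 h with 100 ng/mL interferon gamma (IFNg), 500 nM dexamethasone (Dex), 25 ng/mL of the cytokine TNF, 10 ng/mL of the bacterial product LPS (lipopolysaccharide), 50 U/mL interleukin 2 (IL2), 500 nM doxorubicin (Dox), or with DMSO or PBS as vehicle. In a pretreatment experiment, GM12878 cells were given BRM014 (10 µM) or DMSO for 30 min and then IFNg, Dex or vehicle for 1 h or 6 h, which makes 12 groups. BRM014 blocks the ATPase activity of SMARCA4 and SMARCA2, the motors of BAF complexes, which move nucleosomes. HepG2 cells were given BRM014 (10 µM) or DMSO for 24 h. Each group had 2 libraries except Dox, which had 1. Each cell line is a single established line, and the labels do not say whether replicate libraries came from separate cultures, so the p-values measure the spread between these libraries, which may be technical.

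Interferon-stimulated genes are the effectors of the cell's own antiviral defence. Type I interferons act through the receptor chains IFNAR1 and IFNAR2 and the kinases JAK1 and TYK2 on transcription factors that bind a DNA element called the ISRE. IFNg acts through IFNGR1, IFNGR2, JAK1 and JAK2, and genes that respond to it often carry the GAS element. It induces IRF1, a binder of ISRE-like sequences. Many of these genes keep a low, tonic expression without added interferon. Dexamethasone activates the glucocorticoid receptor, a nuclear receptor with broad anti-inflammatory action.

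Libraries of GM12878 held between 12.9 and 22.9 M counts. The HepG2 libraries held 19.9 and 3.06 M after BRM014, against 9.79 and 17.0 M after DMSO. Among B cell markers, MS4A1 lay between 145 and 363 TPM (a level scaled for transcript length and library size) and CD79A between 453 and 813 TPM in GM12878 libraries, while in HepG2 libraries MS4A1 was at 0 and CD79A at no more than 1.26 TPM. All 7 B cell markers summed to between 817 and 1540 TPM in GM12878. In HepG2 they summed to between 9.38 and 11.8 TPM, where CD40 had 8.12 to 11.1 TPM. The 6 hepatocyte markers summed to between 0.88 and 2.91 TPM in GM12878 and between 13082 and 22267 TPM in HepG2. These sums are in keeping with the labelled lines. The 3 T cell markers summed to at most 4.59 TPM in GM12878 and 2.28 TPM in HepG2. Of the monocyte markers, LYZ had 1288 to 2988 TPM in HepG2, where CD14 had at most 1.81 TPM and CSF1R 0.04 TPM. The source of this LYZ was not tested. Reads that fit more than 1 gene left estimated counts that were not whole in all 43 libraries for USP18 and IFITM2 and in 41 for IFITM1, so the levels of these genes are uncertain. Because 23 of the 45 genes overlap another annotated gene on the opposite strand, and no source used here says whether counting took account of the strand, levels of genes such as RSAD2 and CMPK2, which overlap each other, are uncertain to that extent.

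The genes were grouped by what their products do, and many of them are neighbours in the genome: 22 of the 45 lie within 100 kb of another of them. The IFIT genes, whose products bind foreign RNA ends, stand together on chromosome 10. OAS1, OAS3 and OAS2, which make the oligoadenylate messenger that switches on RNase L, stand together on chromosome 12. The overlapping pair RSAD2 (viperin, which makes a chain-terminating nucleotide) and CMPK2 (a nucleotide kinase) lies on chromosome 2, and the overlapping pair PARP9 and DTX3L, partners in a complex of an ADP-ribosyltransferase family member and a ubiquitin ligase, lies on chromosome 3.

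Promoter windows, from 250 bases before to 50 bases after an annotated transcript start, were available for 36 of the 45 genes in RefSeq sequence of build GRCh38.p14. IFIT2, OAS2, OASL, MX2, LY6E, IFITM2, DHX58, USP18 and TRIM22 were not in that table. The letters GAAA, then NN for any bases, then GAAA again, a form of the ISRE, were searched on both strands. They were found for 27 of the 36 genes (75.0%), where 4.38% of the 27305 genes in the table had them. Forms with another spacing were not searched. The letters TTCNNNGAA, a GAS element, which reads the same on both strands, were found for 11 of the 36 genes (30.6%), where 9.38% of all genes had it. Both were found for 8 of 36 genes (22.2%) and 0.696% of all genes. A match to these letters is a description of the window and not a measured binding site, and overlapping matches are counted apart.

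Windows of 8 genes are printed, 7 with an ISRE match and that of OAS1 with a GAS match alone, because the results below turn on these genes. CMPK2 and XAF1, which also moved strongly, have neither match in their 3 and 2 windows, and neither does a second window of PARP9. IFIT1 had one of the largest falls with Dex, IFIT5 was lower as early as 1 h after BRM014, DTX3L and PARP9 had the largest rises with IFNg, EPSTI1 rose late with IFNg, TRIM21 rose within 1 h in both pretreatment arms, and IFIH1 was the single called gene that was higher after BRM014 at 6 h. OAS1 was among the genes that fell most after BRM014 at 6 h. Capitals mark ISRE or GAS matches and each sequence reads 5′ to 3′ on the strand of its gene. They are chr10:89392373-89392672 (plus strand, IFIT1), chr10:89414318-89414617 (plus, IFIT5), chr3:122564088-122564387 (plus, DTX3L), chr3:122564251-122564550 (minus, PARP9), chr13:42992192-42992491 (minus, EPSTI1), chr11:4393653-4393952 (minus, TRIM21), chr2:162318635-162318934 (minus, IFIH1) and chr12:112906712-112907011 (plus, OAS1).
IFIT1: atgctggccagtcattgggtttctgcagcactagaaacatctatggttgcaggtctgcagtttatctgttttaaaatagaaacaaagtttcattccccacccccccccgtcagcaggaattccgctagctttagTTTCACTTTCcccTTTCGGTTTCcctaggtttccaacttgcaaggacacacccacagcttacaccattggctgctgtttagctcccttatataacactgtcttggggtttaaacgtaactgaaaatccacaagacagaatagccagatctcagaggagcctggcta
IFIT5: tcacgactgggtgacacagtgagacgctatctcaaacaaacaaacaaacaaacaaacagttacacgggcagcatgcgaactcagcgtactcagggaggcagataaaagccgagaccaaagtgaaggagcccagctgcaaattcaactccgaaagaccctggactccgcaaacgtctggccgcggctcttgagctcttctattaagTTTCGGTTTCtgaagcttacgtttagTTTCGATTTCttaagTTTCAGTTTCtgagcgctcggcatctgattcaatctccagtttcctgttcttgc
DTX3L: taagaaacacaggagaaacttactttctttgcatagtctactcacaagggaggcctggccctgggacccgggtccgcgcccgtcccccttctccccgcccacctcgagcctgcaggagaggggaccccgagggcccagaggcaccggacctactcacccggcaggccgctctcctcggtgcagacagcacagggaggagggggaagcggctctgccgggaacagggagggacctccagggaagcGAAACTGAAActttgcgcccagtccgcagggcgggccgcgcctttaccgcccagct
PARP9: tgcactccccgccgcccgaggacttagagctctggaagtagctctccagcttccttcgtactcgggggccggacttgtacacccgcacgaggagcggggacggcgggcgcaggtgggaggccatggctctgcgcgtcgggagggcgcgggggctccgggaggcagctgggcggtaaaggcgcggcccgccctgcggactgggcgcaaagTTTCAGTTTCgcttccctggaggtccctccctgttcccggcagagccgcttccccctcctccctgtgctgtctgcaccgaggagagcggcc
EPSTI1: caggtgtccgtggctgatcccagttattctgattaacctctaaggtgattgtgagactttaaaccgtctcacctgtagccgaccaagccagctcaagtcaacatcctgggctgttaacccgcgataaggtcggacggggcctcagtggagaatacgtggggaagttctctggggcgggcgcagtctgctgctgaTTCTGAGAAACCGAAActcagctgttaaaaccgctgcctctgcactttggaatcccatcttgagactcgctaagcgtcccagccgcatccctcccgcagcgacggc
TRIM21: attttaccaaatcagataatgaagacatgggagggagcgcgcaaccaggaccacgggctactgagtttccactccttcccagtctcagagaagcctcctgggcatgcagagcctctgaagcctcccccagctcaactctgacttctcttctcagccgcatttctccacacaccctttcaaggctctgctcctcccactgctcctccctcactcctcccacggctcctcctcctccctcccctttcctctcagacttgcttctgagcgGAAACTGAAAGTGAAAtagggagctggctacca
IFIH1: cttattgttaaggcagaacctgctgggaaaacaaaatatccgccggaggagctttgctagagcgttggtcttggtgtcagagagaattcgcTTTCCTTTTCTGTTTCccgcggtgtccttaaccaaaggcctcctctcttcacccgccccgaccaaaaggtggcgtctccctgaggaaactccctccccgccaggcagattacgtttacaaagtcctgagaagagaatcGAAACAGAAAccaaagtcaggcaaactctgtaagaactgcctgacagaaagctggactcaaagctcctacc
OAS1: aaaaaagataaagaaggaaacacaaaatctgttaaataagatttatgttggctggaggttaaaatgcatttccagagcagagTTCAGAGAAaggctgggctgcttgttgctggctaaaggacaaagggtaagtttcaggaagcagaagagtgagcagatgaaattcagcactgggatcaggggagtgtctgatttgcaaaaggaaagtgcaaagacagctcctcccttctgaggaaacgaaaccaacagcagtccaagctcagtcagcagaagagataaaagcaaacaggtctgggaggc

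Positions of matches are counted from the transcript start at 0, with negative numbers before it. IFIT1 has ISRE matches that begin at -116 and -103, and IFIT5 has them at -45, -19 and -4. The windows of DTX3L and PARP9 face away from each other and share bases, and the single ISRE match of DTX3L at -6 and that of PARP9 at -41 are the same stretch of DNA read from either strand. In EPSTI1 an ISRE match at -50 overlaps a GAS match at -56. The 2 overlapping ISRE matches of TRIM21 lie after the start, at 17 and 23, and IFIH1 has 3, at -159, -153 and -21. The GAS match of OAS1 begins at -168. The OAS1 window also holds GAAACGAAA, with a single base between the copies of GAAA, a spacing that the ISRE letters searched do not match.

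Without stimulus, most of these genes were already well expressed in GM12878. In the 4 vehicle libraries of the panel, 13 of 45 had a mean above 100 TPM, 24 lay between 10 and 100 TPM, and 8 at or below 10 TPM. Their median was 40.2 TPM, against 9.96 TPM over the 15775 genes tested in the panel, of which 7.19% exceeded 100 TPM. TPM is per transcript length, so it can be compared between genes.

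MX1, a dynamin-like GTPase that traps viral nucleocapsids, was highest at 468 ± 28.9 TPM (SD, n = 4 vehicle libraries). IFITM1 (433 ± 20.6 TPM) and IFITM2 (409 ± 23.7 TPM), which hinder fusion of viral envelopes with membranes, and BST2 (391 ± 5.59 TPM), which tethers budding virions, followed. The ubiquitin-like modifier ISG15 stood at 386 ± 45.3 TPM and the editing enzyme ADAR at 187 ± 6.01 TPM. In this order of the levels the libraries' ranges overlapped for 32 of the 44 neighbouring pairs, so most neighbours did not differ beyond their spread.

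The lowest levels were those of CMPK2 (5.50 ± 0.851 TPM), IFI27 (4.02 ± 1.17 TPM), OASL (3.97 ± 0.581 TPM), RSAD2 (3.66 ± 0.483 TPM) and IFITM3 (0.977 ± 0.38 TPM). Within the OAS family the order was OAS2 (91.1 ± 6.54 TPM), OAS1 (76.7 ± 8.02 TPM), OAS3 (27.2 ± 1.17 TPM) and OASL, and within the IFIT family IFIT3 (67.0 ± 6.34 TPM), IFIT1 (29.5 ± 3.02 TPM), IFIT2 (13.5 ± 0.931 TPM) and IFIT5 (8.75 ± 0.59 TPM). The ranges of OAS2 and OAS1 touched at 86.2 and 86.3 TPM, while the 4 IFIT genes did not overlap. The ligand genes IFNB1, IFNG and IFNL1 were near 0 in the same libraries. IFNB1 had 0.17, 0, 0 and 0.08 TPM, IFNG had 0.22, 0.18, 0.08 and 0.26 TPM, and IFNL1 was listed at 0 in all 4. Other interferon genes were not looked at.

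HepG2 held far less of this RNA. The 45 genes took between 0.0957% and 0.0991% of all counts in the 4 HepG2 libraries, and between 0.603% and 0.657% in the 4 vehicle libraries of the panel. After DMSO in HepG2, 13 of 45 had a mean below 1 TPM and 14 above 10 TPM, with a median of 3.87 TPM. IFI44, SAMD9L and RSAD2 had 0 counts in both HepG2 DMSO libraries, and MX1 had 1.51 and 1.71 TPM. The mean was higher in GM12878 for 43 genes and higher in HepG2 for the other 2. These were IFITM3, with 406 and 412 TPM in HepG2 against 0.63 to 1.43 TPM in GM12878, and PLSCR1, with 41.9 and 40.4 TPM in HepG2 against 29.3 to 39.5 TPM in GM12878. The lines share no fit and differ in medium and time of treatment, so no test was made between them. The counts of genes below 1 TPM in HepG2 and of genes higher in either line were not taken over all genes. They therefore stand without a background.

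**Figure D1:**
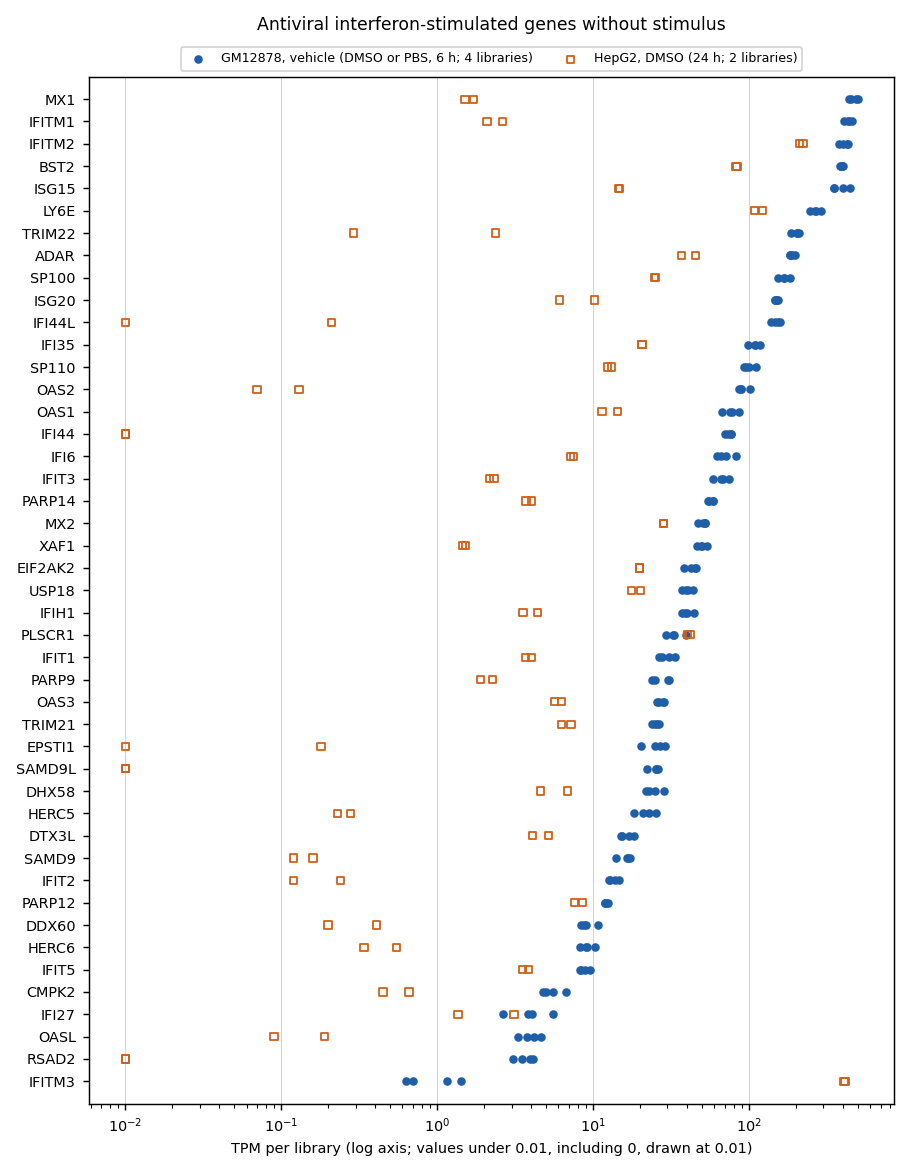
Level of each of the 45 genes without stimulus in TPM on a log axis, 1 point per library, for GM12878 (filled circles, 4 vehicle libraries) and HepG2 (open squares, 2 DMSO libraries), ordered by the GM12878 mean. GM12878 points run from MX1 at 468 TPM on average down to IFITM3 at 0.977 TPM, the only gene for which the HepG2 squares lie far to the right.

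The panel asked how each stimulus moves the genes within 6 h. With IFNg, 43 of 45 rose and none fell (edgeR quasi-likelihood test, Benjamini-Hochberg adjusted p under 0.05 over all genes tested), while 7.11% of the 15775 genes rose and 4.75% fell. The median log2 fold change was 0.75, against -0.008 over all genes, and 16 genes rose more than 2-fold. In all 45 both IFNg libraries lay above the 4 vehicle libraries. Neither this count nor that of genes past 2-fold was taken over all genes. Fewer cells and less RNA per cell cannot be told apart in such bulk samples, and all levels are relative to the RNA of the same library. The genes took 0.951% and 1.03% of all counts in IFNg libraries, against 0.603% to 0.657% in vehicle libraries.

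The PARP group rose most, with all 4 higher and a median of 1.65. PARP9 had 270 and 289 CPM (counts scaled to library size by TMM, with no correction for gene length) in the IFNg libraries, against 63.1, 75.7, 62.9 and 74.1 CPM in vehicle libraries. Both IFNg libraries lay well above all 4 vehicle libraries, a log2 fold change of 2.01 ± 0.087 (SE; adjusted p = 1.06e-07), or 4.04-fold. Its partner DTX3L rose by 1.89 ± 0.07, and PARP14, a macrodomain ADP-ribosyltransferase, by 1.42. PARP12, another member of that enzyme family, had the smallest rise of the group, with 34.9 and 39.3 CPM against 18.5 to 19.5 CPM in vehicle libraries (0.96 ± 0.077; adjusted p = 1.17e-11).

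Both nucleotide-acting genes rose as well, from low levels. RSAD2 had 18.4 and 22.4 CPM with IFNg, against 5.9, 7.12, 6.49 and 7.66 CPM with vehicle (1.58 ± 0.12; adjusted p = 1.54e-12). CMPK2 had 26.4 and 31.7 CPM with IFNg, against 9.44, 12.3, 9.1 and 9.79 CPM with vehicle (1.52 ± 0.19; adjusted p = 0.00054). In both genes the IFNg libraries lay far above the vehicle libraries, and the groups did not overlap.

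In the IFIT family 3 of 4 rose. IFIT2, which also promotes apoptosis, had 79.3 and 95.7 CPM with IFNg, against 34, 36.9, 34.9 and 39.8 CPM with vehicle (1.26 ± 0.13; adjusted p = 0.000298). IFIT1, which binds capped RNA that lacks the host's methyl marks, did not pass, with 48.7 and 61.5 CPM against 36.9, 42, 38.6 and 46 CPM (0.43 ± 0.22; adjusted p = 0.329). It passed with a replicate block (adjusted p = 9.87e-05) or when just the IFNg and vehicle libraries were fitted (adjusted p = 0.0222). All 4 OAS genes rose, from OAS1, with 145 and 157 CPM against 86.3, 95.1, 102 and 106 CPM (0.64 ± 0.078; adjusted p = 0.000105), to OASL, a relative without synthase activity, with 17.2 and 20 CPM against 6.67, 7.96, 6.42 and 8.75 CPM (1.31 ± 0.15; adjusted p = 4.75e-06).

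Of the genes named IFI, all 5 rose with a median of 0.93. IFI44 had the smallest rise, with 83.2 and 99.2 CPM with IFNg against 68.5, 74.1, 64.6 and 75.6 CPM with vehicle (0.36 ± 0.068; adjusted p = 0.00071), and its call was lost without IFNg replicate 2 (adjusted p = 0.053). IFI27, at 3.1 and 2.15 CPM against 1.04 to 1.55 CPM, had the largest point estimate (1.07 ± 0.28; adjusted p = 0.00809), which did not pass in DESeq2 (adjusted p = 0.108) or without IFNg replicate 1 (adjusted p = 0.268).

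All 6 membrane genes rose, though LY6E, which restrains coronavirus fusion, did so by only 0.23 ± 0.049 (249 and 245 CPM with IFNg against 193, 209, 231 and 210 CPM with vehicle; adjusted p = 0.00154). Its call was lost without IFNg replicate 1 (adjusted p = 0.055) and against PBS alone (adjusted p = 0.0651). IFITM3 rested on few reads, with 0.992 and 1.11 CPM against 0.282 to 0.454 CPM (1.42 ± 0.45; adjusted p = 0.0303). Leaving out either DMSO library, PBS replicate 1 or either IFNg library ended that call, with adjusted p between 0.0505 and 0.202.

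MX1 rose by 0.45 ± 0.057 (1178 and 1273 CPM with IFNg against 839 to 962 CPM with vehicle; adjusted p = 4.52e-05). MX2, its relative that acts on retroviruses at the nuclear pore, rose by 0.36 ± 0.077 (124 and 141 CPM against 98.9 to 107 CPM; adjusted p = 0.00732), a call lost without either PBS library or IFNg replicate 2 (adjusted p between 0.0524 and 0.0903). Both rises were below the median of the 45.

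Among RNA helicases DDX60 rose most, with 56.6 and 65.4 CPM with IFNg against 28.3 to 34.3 CPM with vehicle (0.95 ± 0.071; adjusted p = 3.14e-12), and DHX58, a sensor that modulates the other receptors of its family, least, with 41.5 and 43.4 CPM against 30.5 to 33.4 CPM (0.42 ± 0.067; adjusted p = 1.89e-05). In the ISG15 system USP18, which removes ISG15 from proteins, rose to 99.3 and 110 CPM against 58.8 to 69.2 CPM with vehicle (0.71 ± 0.074; adjusted p = 3.6e-06). HERC5, the ligase that attaches ISG15, did not pass, with 75.2 and 92.7 CPM against 53.8, 59.3, 49.1 and 63.2 CPM (0.57 ± 0.16; adjusted p = 0.0663), but passed in DESeq2 (adjusted p = 0.00554), with a replicate block (adjusted p = 8.58e-11) and without PBS replicate 2 (adjusted p = 0.0499).

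ISG20, an exonuclease, rose to 158 and 150 CPM with IFNg against 79.1 to 87.8 CPM with vehicle (0.87 ± 0.046; adjusted p = 2.15e-16). ADAR had 1076 and 1123 CPM with IFNg, against 888, 889, 895 and 939 CPM with vehicle (0.28 ± 0.038; adjusted p = 6.9e-07). TRIM21, a cytosolic antibody receptor, had 67.5 and 71.8 CPM against 32.9 to 35.3 CPM (1.03 ± 0.063; adjusted p = 1.31e-14). SP100, a constituent of PML nuclear bodies, rose by 0.24 ± 0.051 (adjusted p = 0.00226), which did not pass without IFNg replicate 2 (adjusted p = 0.0768).

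EPSTI1 had 108 and 114 CPM with IFNg against 41.2 to 49.6 CPM with vehicle (1.27 ± 0.056; adjusted p = 1.85e-18). SAMD9, a restriction factor for poxviruses, had 107 and 121 CPM against 77 to 94 CPM (0.37 ± 0.099; adjusted p = 0.0456), and its call ended without either DMSO library, PBS replicate 1 or either IFNg library (adjusted p between 0.0632 and 0.281). Its neighbour SAMD9L rose by 1.20.

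The wider interferon pathway was read from a list of 35 genes outside the 45, of which 31 were tested in the panel. With IFNg 16 rose and 2 fell. The transcription factors IRF1 (2.53 ± 0.043), STAT2 (1.24 ± 0.038), IRF8 (0.90 ± 0.036), STAT3 (0.76 ± 0.036), IRF2 (0.64 ± 0.05) and IRF5 (0.63 ± 0.039) and the inhibitors SOCS3 (1.93 ± 0.083) and SOCS1 (1.83 ± 0.082) had the smallest adjusted p.

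Dex lowered most of the same 45 genes at 6 h. In the panel 30 fell and 2 rose by the same test, against 12.7% and 13.0% of all genes, and the median log2 fold change was -0.37, against -0.0016 over all genes. The largest called falls were in CMPK2, OASL and IFIT1, while 1 of the 6 membrane genes passed. The 45 genes took 0.504% and 0.532% of counts in the Dex libraries, below the 0.603% to 0.657% of the vehicle libraries.

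CMPK2 had 2.36 and 4.77 CPM with Dex, against 9.44, 12.3, 9.1 and 9.79 CPM with vehicle (-1.45 ± 0.27; adjusted p = 0.00338). OASL had 3.13 and 2.67 CPM with Dex, against 6.67, 7.96, 6.42 and 8.75 CPM with vehicle (-1.39 ± 0.21; adjusted p = 5.05e-05). IFIT1 had 13 and 19.4 CPM with Dex, against 36.9, 42, 38.6 and 46 CPM with vehicle (-1.31 ± 0.26; adjusted p = 0.00847). All 3 lay below every vehicle library, although the 2 Dex libraries of CMPK2 and IFIT1 stood apart from each other, and IFIT1 did not pass without Dex replicate 1 (adjusted p = 0.0702).

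USP18 had 34.8 and 41.5 CPM with Dex, against 58.8 to 69.2 CPM with vehicle (-0.73 ± 0.085; adjusted p = 4.65e-06). All 4 genes of the IFIT group, of the OAS group and of the group of SAMD9, SAMD9L, EPSTI1 and XAF1 fell, 3 of 5 IFI genes did, and 1 of 4 PARP genes (PARP12, -0.24) and 1 of 6 membrane genes (BST2, -0.23) did. ISG20 went the other way, with 145 and 140 CPM with Dex against 79.1, 87.8, 85.9 and 85.2 CPM with vehicle (0.75 ± 0.046; adjusted p = 3.5e-15). TRIM22, a ubiquitin ligase that acts on retroviral transcription, rose by 0.16 ± 0.037 (379 and 393 CPM against 325 to 364 CPM; adjusted p = 0.000983), a call lost against DMSO alone (adjusted p = 0.0681).

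Of the 31 pathway genes, 10 rose and 12 fell with Dex. IFNGR1 (-0.64 ± 0.044), IFNAR2 (-0.38 ± 0.051), IRF1 (-0.70 ± 0.054) and IRF5 (-0.31 ± 0.041) fell. The adaptor STING1 (1.02 ± 0.072), the inhibitor SOCS1 (1.35 ± 0.084), the receptor chain IFNLR1 (0.76 ± 0.072) and IFNGR2 (0.37 ± 0.049) rose.

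**Figure D2:**
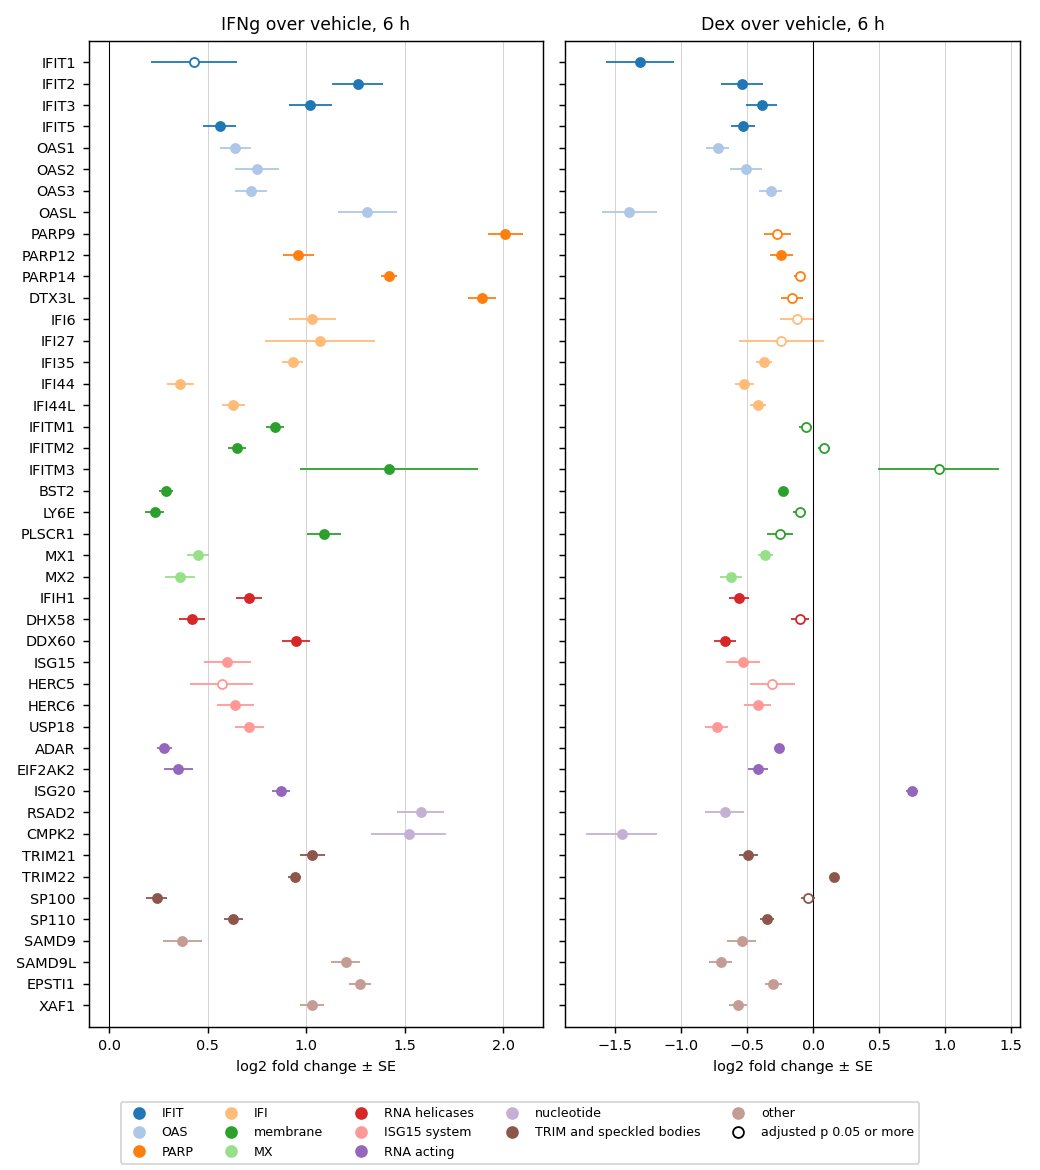
Log2 fold change with its standard error for each of the 45 genes in the panel at 6 h, IFNg (left) and Dex (right) over the 4 vehicle libraries, coloured by role group, with open symbols where the adjusted p was 0.05 or more. Every point lies right of 0 with IFNg, up to 2.01 for PARP9, and most lie left of 0 with Dex, with ISG20 at 0.75 as the largest called rise.

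TNF, LPS and IL2 gave no call among the 45 genes in edgeR or in DESeq2 as fitted here. This depended on the fit: with the replicate number as a block edgeR called 12 of the 45 with LPS, 2 with IL2 and 1 with TNF, and with no filter on low counts 7 with LPS, 2 with IL2 and 2 with TNF. The shares of all genes called in those fits are not given here, so their counts stand without a background. In the fit with the filter and no block, 0.0190% of all genes were called higher with TNF, 0% with LPS and 0.197% with IL2. Those called lower were 0%, 0% and 0.00634%. At an unadjusted p under 0.05 stood 9 of the 45 genes with TNF (792 of all genes), 16 with LPS (776) and 5 with IL2 (902). Their medians were 0.077 with TNF, 0.14 with LPS and 0.092 with IL2, and 38, 43 and 43 of the 45 point estimates were above 0. The DMSO group likewise had no call against the PBS group among the 45 in edgeR or in DESeq2 (4 at an unadjusted p under 0.05, 1697 of all genes, median -0.021), where 0.184% of all genes were higher in DMSO and 0.254% lower. Leaving out PBS replicate 2 gave 1 call each with LPS and IL2, and leaving out LPS replicate 1 gave 1 with LPS.

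Dox had 1 library and no test. On a log2 scale of CPM plus 1, none of the 45 genes was past 2-fold from the mean of the 4 vehicle libraries, where 0.406% of all genes were higher and 0.203% lower. The median was 0.09 and 34 of 45 were above 0, with 23 within the range of the vehicle libraries. The highest were USP18 at 0.92, with 122 CPM in the Dox library against 58.8 to 69.2 CPM in the vehicle libraries, TRIM22 at 0.72, with 570 against 325 to 364 CPM, and HERC5 at 0.61, with 86.7 against 49.1 to 63.2 CPM. The lowest was DHX58 at -0.37, with 24.4 CPM in the Dox library against 30.5 to 33.4 CPM in the vehicle libraries.

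The pretreatment experiment repeated IFNg and Dex in other libraries and added an early time. In the DMSO arm at 6 h, 38 of the 45 genes rose with IFNg and none fell, against 3.47% and 3.15% of the 15183 genes tested, with a median of 0.54. Of the 43 called in the panel 37 were called higher here, an overlap that was not counted over all genes. Over the 45 genes the 2 sets of fold changes, which share no library, had a Pearson correlation of 0.91 across genes, a description over genes that are not independent, and a slope of 0.74 through 0. The largest rises were again in the PARP pair. PARP9 had 218 and 269 CPM with IFNg, against 81.2 and 70.7 CPM with vehicle (1.69 ± 0.084; adjusted p = 6.92e-13), and DTX3L had 203 and 277 CPM against 88 and 90 CPM (1.43 ± 0.11; adjusted p = 3.8e-07). RSAD2 had 16.5 and 22.1 CPM against 8.15 and 8.16 CPM (1.25 ± 0.15; adjusted p = 5.5e-07), and EPSTI1 102 and 107 CPM against 48.6 and 46.5 CPM (1.14 ± 0.065; adjusted p = 6.98e-14). In all 4 genes both IFNg libraries lay above both vehicle libraries. Of the pathway list 15 of 32 rose and 2 fell, with SOCS3 (1.65 ± 0.11) and JAK2 (0.72 ± 0.076) among those that rose.

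At 1 h only 5 of the 45 had risen with IFNg in the DMSO arm and none had fallen, against 0.435% and 0.0790% of all genes. They were IFIT2, CMPK2, TRIM21, DTX3L and IFIT3. IFIT2 had 77 and 77.3 CPM with IFNg, against 33.9 and 34 CPM with vehicle (1.18 ± 0.074; adjusted p = 1.58e-12). CMPK2 had 22.3 and 21 CPM against 13.3 and 11.8 CPM (0.79 ± 0.12; adjusted p = 7.46e-05), and TRIM21 had 57.1 and 57.5 CPM against 34.2 and 33 CPM (0.77 ± 0.072; adjusted p = 1.34e-08). DTX3L had 122 and 110 CPM against 77.2 and 78.5 CPM (0.58 ± 0.11; adjusted p = 0.0311), and IFIT3 had 198 and 185 CPM against 125 and 136 CPM (0.55 ± 0.064; adjusted p = 8.38e-07). The 2 groups did not overlap in any of the 5 genes. Leaving out either vehicle library or IFNg replicate 1 ended the call of DTX3L (adjusted p between 0.269 and 0.349).

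Among the pathway genes 5 of 32 had risen at 1 h, namely IRF1 (3.33 ± 0.19), SOCS3 (3.05 ± 0.11), SOCS1 (2.51 ± 0.14), IRF8 (0.61 ± 0.058) and TLR7 (0.27 ± 0.06).

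The IFNg effect at 6 h exceeded that at 1 h in 17 of the 45 genes, by a test of the difference itself, and was smaller in none, against 1.12% and 0.889% of all genes. The median difference was 0.37. All 4 PARP genes were among the 17. PARP9 had a difference of 1.56 ± 0.12 (adjusted p = 1.04e-08), having had 79.8 and 66.6 CPM with IFNg at 1 h, against 68 and 66.6 CPM with vehicle. PARP14 differed by 1.08 ± 0.17 (adjusted p = 0.00427), EPSTI1 by 1.06 ± 0.095 (adjusted p = 8.42e-09) and DDX60 by 0.89 ± 0.12 (adjusted p = 8.38e-06). IFIT2 was the gene with the lowest difference, -0.29, which did not pass. At 6 h it had 75.4 and 88.4 CPM against 43.8 and 44.4 CPM with vehicle. The count fell to 11 without 1 h vehicle replicate 2, to 10 without 6 h vehicle replicate 2 and to 10 without 1 h IFNg replicate 2.

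In vehicle cells of the DMSO arm 4 of the 45 genes were also called between 1 h and 6 h, all higher at 6 h. Of all genes 1.12% were higher and 0.310% lower. With no untreated group, time in culture and exposure to vehicle cannot be told apart here. IFIH1, the sensor MDA5, had 108 and 100 CPM at 6 h, against 76.7 and 76.2 CPM at 1 h (0.44 ± 0.058; adjusted p = 4.03e-05). OAS2 had 353 and 312 CPM at 6 h, against 251 and 253 CPM at 1 h (0.40 ± 0.065; adjusted p = 0.00158). IFIT2 had 43.8 and 44.4 CPM at 6 h, against 33.9 and 34 CPM at 1 h (0.38 ± 0.077; adjusted p = 0.00926), and OAS1 had 127 and 109 CPM, against 94.3 and 96.5 CPM (0.30 ± 0.069; adjusted p = 0.0194). The 6 h libraries were the higher ones throughout. Without either 1 h library or 6 h replicate 1 the count was 2, with IFIT2 and OAS1 losing their calls (adjusted p between 0.0526 and 0.116 for IFIT2 and between 0.146 and 0.278 for OAS1). IFIT2 lost its call without 6 h replicate 2 as well (adjusted p = 0.0545).

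Dex repeated its falls in the DMSO arm at 6 h, where 34 of the 45 genes fell and ISG20 rose, against 7.53% and 8.06% of all genes. The median was -0.49, and 29 genes fell in both experiments, an overlap that was not counted over all genes. The fold changes here were larger than in the panel, with a slope of 1.34 through 0 and a Pearson correlation of 0.96 across genes. IFIT1 had 14.2 and 12.6 CPM with Dex, against 59.4 and 54.5 CPM with vehicle (-2.08 ± 0.19; adjusted p = 9.75e-07). OASL had 1.9 and 3.04 CPM with Dex, against 10.7 and 8.52 CPM with vehicle (-1.98 ± 0.21; adjusted p = 1.45e-08). The Dex level was 0.237 times the vehicle level for IFIT1 and 0.254 times for OASL, and neither gene's groups overlapped. CMPK2 had 4.61 and 3.7 CPM with Dex, against 15.5 and 12.7 CPM with vehicle (-1.74 ± 0.15; adjusted p = 9.27e-11), and RSAD2 had 3.86 and 2.89 CPM against 8.15 and 8.16 CPM (-1.25 ± 0.18; adjusted p = 3.81e-06). ISG20 had 131 and 123 CPM against 83.1 and 70.8 CPM (0.73 ± 0.065; adjusted p = 2.47e-10). Of the pathway genes 7 of 32 rose and 11 fell, TLR7 by -0.73 ± 0.063 and IRF7 by -0.52 ± 0.069 among those that fell.

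After 1 h of Dex none of the 45 genes was called in either arm, by edgeR or by DESeq2. At an unadjusted p under 0.05 stood 0 of them in the DMSO arm (620 of all genes) and 2 in the BRM014 arm (652 of all genes). Of all genes 0.362% were higher and 0.244% lower in the DMSO arm, and 0.178% and 0.0988% in the BRM014 arm. The medians were 0.0024 and -0.037.

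BRM014 lowered nearly all of the 45 genes by the 6 h time without any stimulus. In vehicle cells at 6 h, 42 fell and 1 rose, against 20.1% and 18.4% of all genes, with a median of -0.96 against 0.0064 over all genes, and 20 were more than 2-fold lower. In all 45 the BRM014 libraries did not overlap the DMSO libraries, which with so few libraries adds little to the calls. Neither this count nor that of genes past 2-fold was taken over all genes. The genes took 0.364% and 0.376% of counts in BRM014 libraries, against 0.652% and 0.632% in DMSO libraries. The 2 not called were IFI27 and IFITM3, both of low level.

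RSAD2 had 1.43 and 1.02 CPM after BRM014, against 8.15 and 8.16 CPM after DMSO (-2.74 ± 0.22; adjusted p = 1.22e-11). CMPK2 had 2.14 and 2.21 CPM after BRM014, against 15.5 and 12.7 CPM after DMSO (-2.68 ± 0.16; adjusted p = 2.64e-14). The BRM014 level was 0.149 times the DMSO level for RSAD2 and 0.156 times for CMPK2. XAF1, a promoter of apoptosis, had 12.3 and 15.6 CPM after BRM014, against 64.1 and 70.3 CPM after DMSO (-2.26 ± 0.14; adjusted p = 6.75e-10). OAS2 had 70.6 and 79.5 CPM after BRM014, against 353 and 312 CPM after DMSO (-2.14 ± 0.071; adjusted p = 8.58e-19).

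By role, the medians were -2.71 for the nucleotide genes, -1.94 for OAS, -1.59 for SAMD9, SAMD9L, EPSTI1 and XAF1, -1.32 for MX, -0.95 for IFIT, -0.89 for IFI, -0.88 for PARP, -0.63 for the membrane genes, -0.57 for the ISG15 system and -0.34 for the TRIM and speckled body genes. The exception among called genes was IFIH1, with 124 and 121 CPM after BRM014, against 108 and 100 CPM after DMSO (0.24 ± 0.056; adjusted p = 0.000985). The other RNA helicases fell, DDX60 by -1.14 and DHX58 by -0.99. Of the pathway genes 19 of 32 fell and 1 rose, with TLR7 (-1.59 ± 0.066), STING1 (-1.59 ± 0.15), IRF7 (-1.25 ± 0.071), IRF8 (-1.02 ± 0.061) and RIGI (-0.91 ± 0.097) among those that fell.

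The early BRM014 effect was narrower. After 1 h of vehicle, which followed the 30 min of pretreatment, 4 of the 45 fell and none rose, against 1.46% and 0.599% of all genes. They were 3 of the 4 IFIT genes and CMPK2. IFIT3 had 74.5 and 71.6 CPM after BRM014, against 125 and 136 CPM after DMSO (-0.84 ± 0.068; adjusted p = 6.29e-10). IFIT5 had 17.1 and 18.1 CPM against 28.6 and 29.8 CPM (-0.73 ± 0.1; adjusted p = 2.57e-05). IFIT2 had 22.2 and 22.9 CPM against 33.9 and 34 CPM (-0.59 ± 0.084; adjusted p = 2.79e-05). These 3 genes were clearly lower in both BRM014 libraries, while OAS1 and OAS2, which fell by -2.14 at 6 h, stood at -0.16 and -0.21 and did not pass. CMPK2 had 8.69 and 8.26 CPM against 13.3 and 11.8 CPM (-0.56 ± 0.13; adjusted p = 0.0138), a call not made by DESeq2 (adjusted p = 0.123) and lost without DMSO replicate 1 or either BRM014 library (adjusted p between 0.0743 and 0.235).

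**Figure D3:**
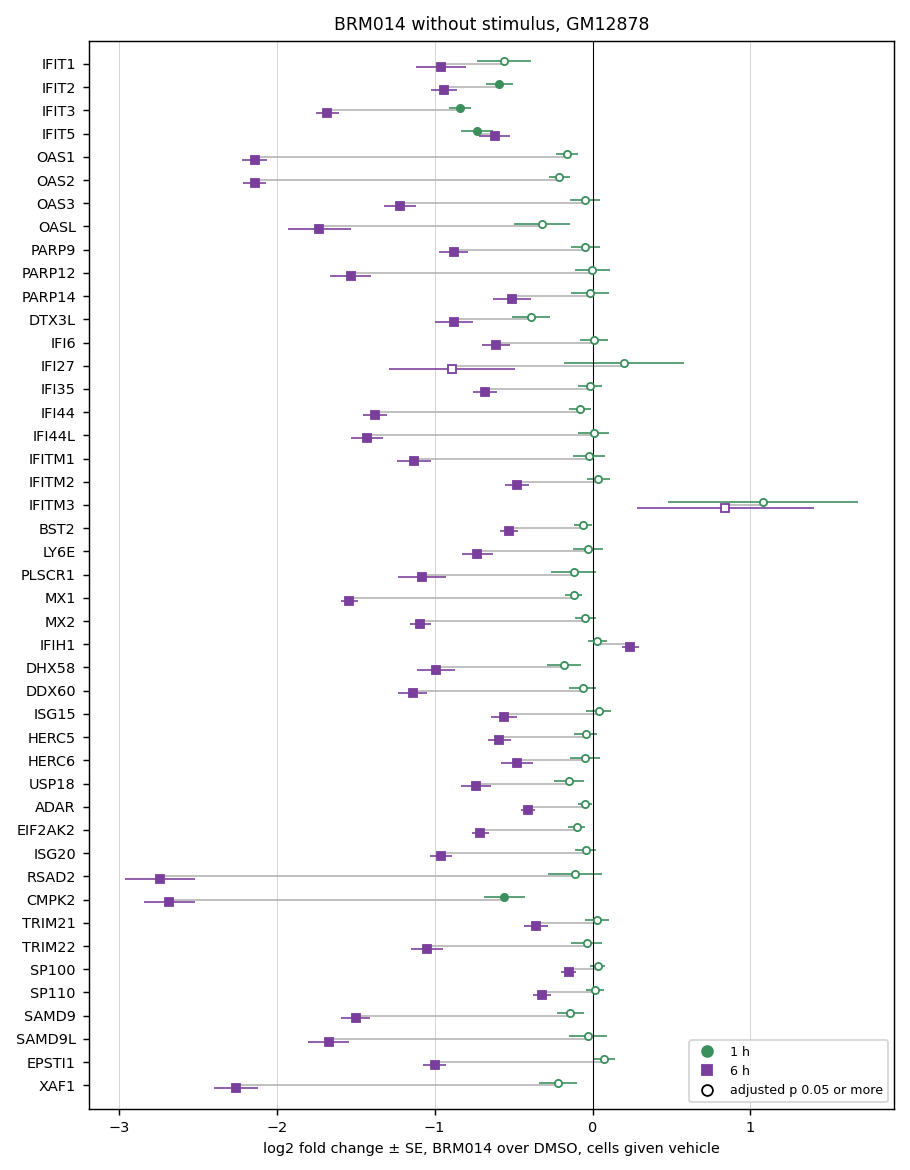
Log2 fold change with its standard error of BRM014 over DMSO in GM12878 cells given vehicle, at 1 h (circles) and 6 h (squares), with open symbols where the adjusted p was 0.05 or more. At 1 h the called genes are IFIT2, IFIT3, IFIT5 and CMPK2, and at 6 h nearly every square lies left of 0, down to -2.74 for RSAD2, with IFIH1 at 0.24 the called exception.

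The same comparison within IFNg and Dex cells gave like counts at 6 h. With IFNg 40 of the 45 were lower after BRM014 and 1 higher, against 18.7% and 15.0% of all genes, with a median of -0.98. RSAD2 had 3.04 and 3.65 CPM after BRM014, against 16.5 and 22.1 CPM after DMSO (-2.54 ± 0.17; adjusted p = 4.6e-13), and CMPK2 had 5.79 and 5.99 CPM against 27.3 and 28 CPM (-2.23 ± 0.13; adjusted p = 1.8e-14). OAS1 had 45.4 and 49.7 CPM against 167 and 165 CPM (-1.80 ± 0.073; adjusted p = 2.38e-18), and SAMD9L 68.1 and 63.1 CPM against 180 and 229 CPM (-1.65 ± 0.12; adjusted p = 3.97e-08). For RSAD2, CMPK2, OAS1 and SAMD9L the IFNg level after BRM014 lay below the vehicle level after DMSO. This was not particular to them, as it held for OAS2 too, though not for PARP9. For how many of the 45 genes it held was not counted. IFIH1 was again higher, with 180 and 173 CPM against 149 and 153 CPM (0.23 ± 0.055; adjusted p = 0.0014).

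With Dex at 6 h 37 of the 45 were lower after BRM014 and 1 higher, against 20.6% and 17.1% of all genes, with a median of -0.65. OAS2 had 59.7 and 61.6 CPM after BRM014, against 201 and 191 CPM after DMSO (-1.69 ± 0.073; adjusted p = 1.67e-16), and OAS1 had 18.9 and 20.6 CPM against 66 and 59.7 CPM (-1.67 ± 0.086; adjusted p = 3.56e-16). RSAD2 had 1.16 and 1.21 CPM against 3.86 and 2.89 CPM (-1.52 ± 0.25; adjusted p = 1.36e-05), and MX1 240 and 254 CPM against 687 and 665 CPM (-1.45 ± 0.054; adjusted p = 1.59e-19). IFIH1 had 109 and 108 CPM after BRM014, against 57.2 and 62.2 CPM after DMSO (0.86 ± 0.06; adjusted p = 3.78e-13). IFIT1, at 15.3 and 14.4 CPM against 14.2 and 12.6 CPM, stood at 0.14 and did not pass.

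After 1 h of IFNg 8 of the 45 were lower after BRM014 and none higher, against 1.58% and 0.619% of all genes. IFIT2 had 31.3 and 28.4 CPM after BRM014, against 77 and 77.3 CPM after DMSO (-1.37 ± 0.076; adjusted p = 4.82e-14), and CMPK2 had 8.17 and 9.15 CPM against 22.3 and 21 CPM (-1.32 ± 0.12; adjusted p = 8.45e-09). IFIT3 had 95.3 and 81.4 CPM against 198 and 185 CPM (-1.12 ± 0.066; adjusted p = 2.83e-13), and OASL 6.85 and 6 CPM against 12.4 and 10.6 CPM (-0.85 ± 0.18; adjusted p = 0.00325). All 4 were lower in both BRM014 libraries. Without DMSO and IFNg replicate 1 the count was 5, and without BRM014 and IFNg replicate 2 it was 4, with OASL losing its call in both.

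**Figure D4:**
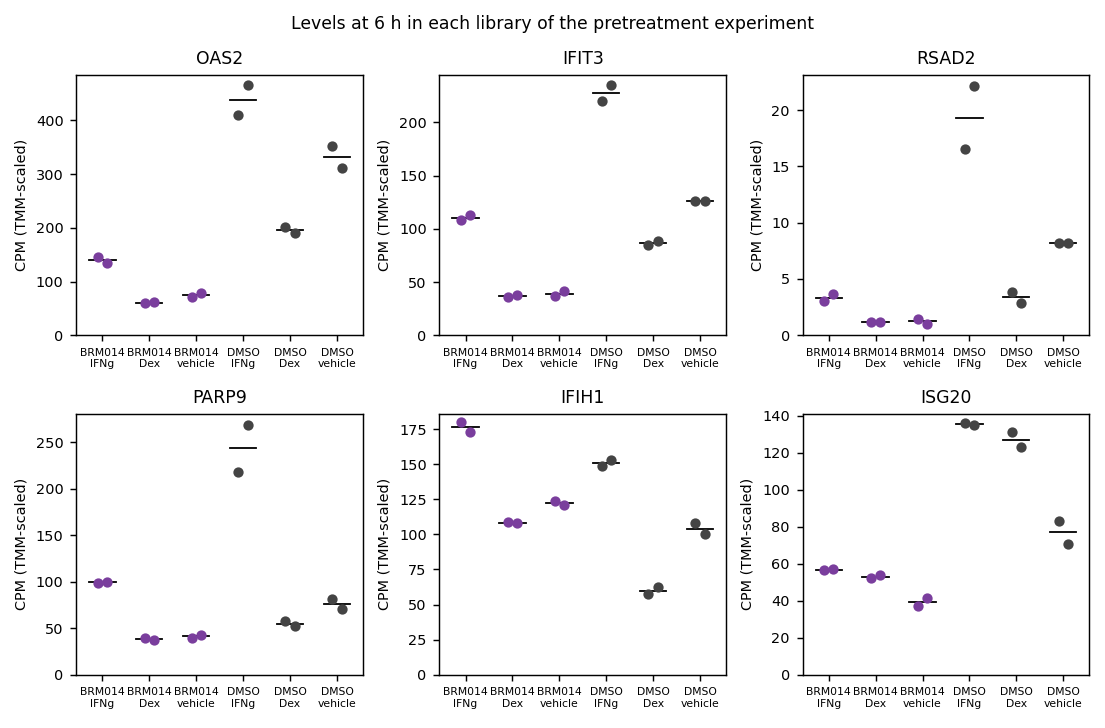
CPM in each library of the 6 groups of the pretreatment experiment at 6 h for OAS2, IFIT3, RSAD2, PARP9, IFIH1 and ISG20, with the group mean as a line, BRM014 groups left of DMSO groups. OAS2, IFIT3, RSAD2, PARP9 and ISG20 are lower in each BRM014 group than in its DMSO counterpart, while IFIH1 is higher.

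Although the levels were lower, IFNg still raised the genes after BRM014. At 6 h in the BRM014 arm 35 of the 45 rose and none fell, against 1.50% and 0.270% of all genes, with a median of 0.58. Of these, 31 were called higher in both arms, an overlap that was not counted over all genes. Across the 45 genes the slope of the IFNg fold changes after BRM014 on those after DMSO was 1.02 through 0, with a Pearson correlation of 0.60 across genes, and the 2 arms share no library.

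XAF1 had 41.7 and 37.3 CPM with IFNg, against 12.3 and 15.6 CPM with vehicle, both after BRM014 (1.49 ± 0.15; adjusted p = 4.01e-06). IFIT3 had 108 and 113 CPM with IFNg, against 36.6 and 41.8 CPM with vehicle (1.49 ± 0.074; adjusted p = 1.45e-15). RSAD2 had 3.04 and 3.65 CPM with IFNg, against 1.43 and 1.02 CPM with vehicle (1.46 ± 0.25; adjusted p = 0.000333). In these genes, as in CMPK2 (5.79 and 5.99 CPM against 2.14 and 2.21 CPM; 1.43 ± 0.19; adjusted p = 3.24e-06), both IFNg libraries lay above both vehicle libraries. None of the 6 membrane genes passed after BRM014, where 4 had passed after DMSO, though their difference between arms did not pass for any of them. Of the pathway genes 14 of 32 rose and 1 fell, IRF8 by 0.86 ± 0.061 and IRF1 by 2.85 ± 0.19 among those that rose.

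The difference of the IFNg effect between arms at 6 h passed for 2 of the 45 genes, both larger after BRM014, against 0.0461% of all genes larger and 0.151% smaller. They were IFIT3, with 0.63 ± 0.098 (adjusted p = 0.000781), and OAS2, with 0.51 ± 0.097 (adjusted p = 0.0174). IFIT3 rose 2.8-fold after BRM014 and 1.81-fold after DMSO. OAS2 rose to 141 ± 7.23 CPM with IFNg against 75.1 ± 6.27 CPM with vehicle after BRM014, and to 437 ± 39.4 CPM against 333 ± 29.6 CPM after DMSO (SD, n = 2 each). The median difference over the 45 was 0.15 and 30 were above 0. OAS2 lost its call without DMSO vehicle replicate 1, BRM014 vehicle replicate 1 or BRM014 and IFNg replicate 1 (adjusted p between 0.0746 and 0.204), and when just these groups were fitted (adjusted p = 0.263). The count was 1 without either of those BRM014 libraries and 4 without DMSO and IFNg replicate 1. In the pathway list IRF5 differed by -0.37 ± 0.08 and SOCS1 by -1.03 ± 0.2.

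At 1 h the difference in IFNg effect between arms passed the test for 1 of the 45 genes, IFIT2. In the BRM014 arm TRIM21 was the 1 of 45 genes called higher, and none was lower, against 0.105% and 0% of all genes, with 49.3 and 48 CPM with IFNg against 34 and 34.5 CPM with vehicle (0.50 ± 0.074; adjusted p = 0.000232). The count was 2 without BRM014 and IFNg replicate 2. For IFIT2 that difference between arms was -0.79 ± 0.11 (adjusted p = 0.00032), where 0.0659% of all genes were smaller after BRM014 and 0% larger. IFIT2 had 31.3 and 28.4 CPM with IFNg against 22.2 and 22.9 CPM with vehicle after BRM014, a rise that did not pass (0.40 ± 0.085; adjusted p = 0.0528). For the other genes called at 1 h after DMSO the difference between arms did not pass, with -0.76 ± 0.18 for CMPK2 (adjusted p = 0.23), -0.28 for IFIT3, -0.32 for DTX3L and -0.27 for TRIM21 (adjusted p = 1 each). SOCS3 (-1.50 ± 0.16) and SOCS1 (-1.16 ± 0.2) also differed.

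Across the 45 genes as a set the Dex effect at 6 h was smaller in size after BRM014, though not in every gene. In that arm 16 of the 45 fell and 2 rose, against 4.10% and 3.67% of all genes, with a median of -0.17. IFIT1 had 15.3 and 14.4 CPM with Dex, against 26.4 and 32 CPM with vehicle, both after BRM014 (-0.98 ± 0.19; adjusted p = 0.00406). OASL had 1.77 and 1.32 CPM against 2.46 and 3.23 CPM (-0.89 ± 0.27; adjusted p = 0.0372), USP18 28.5 and 27.5 CPM against 40.8 and 45.2 CPM (-0.62 ± 0.1; adjusted p = 0.000193), and SAMD9 24.3 and 20.7 CPM against 35 and 31.7 CPM (-0.56 ± 0.11; adjusted p = 0.000754). TRIM22 rose to 241 and 235 CPM with Dex, against 156 and 154 CPM (0.62 ± 0.1; adjusted p = 0.000888), and ISG20 to 52.2 and 53.7 CPM against 36.8 and 41.6 CPM (0.43 ± 0.073; adjusted p = 8.35e-05). After DMSO TRIM22 had 344 and 349 CPM with Dex against 317 and 324 CPM with vehicle and was not called. Its difference between arms, 0.50 ± 0.14, did not pass (adjusted p = 0.0885). The count of 18 calls was 9 without BRM014 vehicle replicate 2 and 11 without BRM014 and Dex replicate 2. IFIT1 lost its call without either of these (adjusted p of 0.0634 and 0.0594), and OASL without either of them or BRM014 and Dex replicate 1, or in DESeq2 (adjusted p between 0.0599 and 0.36).

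The difference of the Dex effect between arms passed for 8 of the 45 genes, all less negative after BRM014, against 1.04% of all genes with a positive and 1.72% with a negative difference. The median over the 45 was 0.32, and 40 were above 0. The slope of the Dex fold changes after BRM014 on those after DMSO was 0.35 through 0, with a Pearson correlation of 0.64 across genes. CMPK2 had 1.77 and 1.49 CPM with Dex against 2.14 and 2.21 CPM with vehicle after BRM014 (-0.42 ± 0.24), against its fall of -1.74 ± 0.15 after DMSO, a difference of 1.31 ± 0.29 (adjusted p = 0.00557).

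IFIT1 differed by 1.10 ± 0.27 (adjusted p = 0.0493), XAF1 by 0.87 ± 0.22 (adjusted p = 0.0382) and IFIT2 by 0.66 ± 0.12 (adjusted p = 0.000801), and the others were IFIT3, OAS1, OAS2 and IFIH1, whose difference of 0.62 ± 0.082 had the smallest adjusted p of the 8 (6.19e-06). For CMPK2, XAF1 and IFIT2 the Dex level after BRM014 lay close to the vehicle level of that arm, which was itself below the Dex level after DMSO. Leaving out any 1 of the 8 libraries ended the call of IFIT1 (adjusted p between 0.0626 and 0.19), and any but BRM014 vehicle replicate 2 that of XAF1 (adjusted p between 0.0545 and 0.171), while CMPK2 lost it without BRM014 and Dex replicate 1 (adjusted p = 0.0808). The count was 5 without DMSO vehicle replicate 1, 4 without DMSO and Dex replicate 2, 3 without BRM014 vehicle replicate 1, and 5 and 4 without the BRM014 and Dex replicates 1 and 2.

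**Figure D5:**
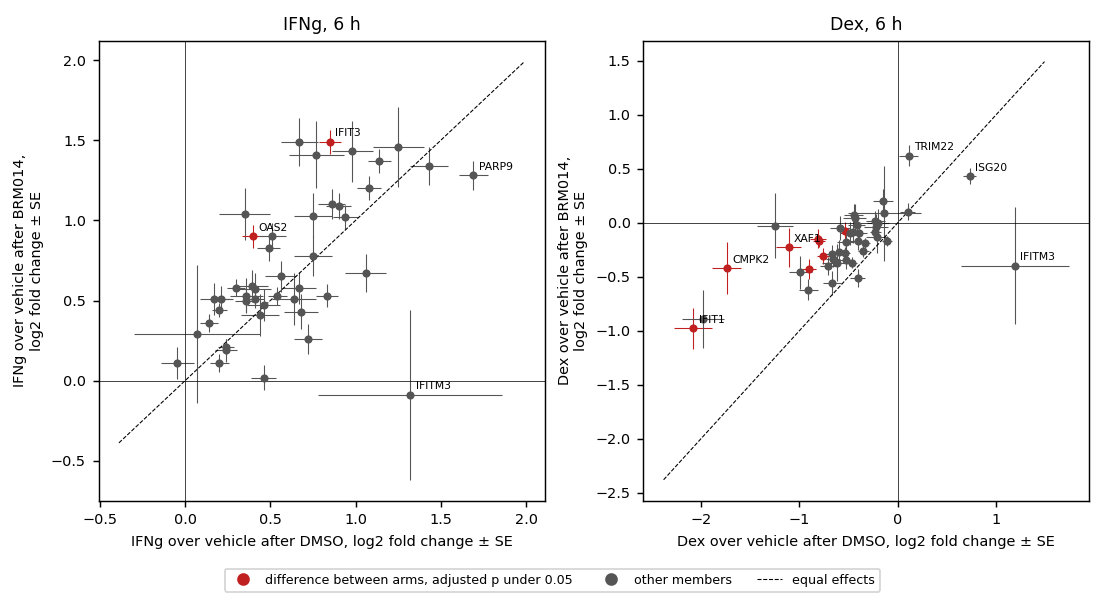
Log2 fold change of each of the 45 genes over vehicle after BRM014 (vertical) against the same after DMSO (horizontal) at 6 h, with standard errors, for IFNg (left) and Dex (right). With IFNg the points scatter about the dashed line of equal effects, and with Dex most lie above it, with the genes whose difference passed drawn in red, among them IFIT1 at -0.98 after BRM014 and -2.08 after DMSO and CMPK2 at -0.42 after BRM014 and -1.74 after DMSO.

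In HepG2 only 30 of the 45 genes passed the filter on low counts. After 24 h of BRM014, 14 of these fell and 2 rose, against 22.8% and 19.3% of the 13349 genes tested, with a median of -0.45 against -0.015 over all genes. The share of counts taken by the 45 genes together was not lower, at 0.0969% and 0.0991% after BRM014, against 0.0959% and 0.0957% after DMSO. The 15 that were not tested had at most 1.5 CPM in any HepG2 library. IFIT3 had 0.338 and 0.314 CPM after BRM014 (7 and 1 counts), against 4.17 and 3.72 CPM after DMSO (39 and 61 counts; -3.51 ± 0.48; adjusted p = 1.71e-05). OAS1 had 1.93 and 0.314 CPM after BRM014 (40 and 1 counts), against 15.5 and 11.7 CPM after DMSO (145 and 192 counts; -3.03 ± 0.32; adjusted p = 8.18e-07). Both genes were lower in both BRM014 libraries, the second of which held only 3.06 M counts.

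XAF1 had 0.29 and 0.941 CPM after BRM014, against 2.78 and 2.26 CPM after DMSO (-2.61 ± 0.57; adjusted p = 0.00148), and DHX58 1.11 and 3.45 CPM against 5.99 and 4.27 CPM (-1.66 ± 0.42; adjusted p = 0.00438). IFITM2 rose to 126 and 133 CPM after BRM014, against 88 and 79.1 CPM after DMSO (0.63 ± 0.099; adjusted p = 7.27e-05), and SP100 to 37.6 and 35.8 CPM against 27.7 and 28.3 CPM (0.40 ± 0.13; adjusted p = 0.0177). Without BRM014 replicate 1 the count of calls was 9, and XAF1 (adjusted p = 0.234) and DHX58 (adjusted p = 0.44) lost theirs, DHX58 also in DESeq2 (adjusted p = 0.089). SP100 did not pass without either DMSO library, without BRM014 replicate 1 or in DESeq2 (adjusted p between 0.0507 and 0.176). Of 26 pathway genes tested 9 rose and 3 fell, with JAK2 (1.43 ± 0.21), IFNGR1 (0.62 ± 0.097) and IRF9 (0.92 ± 0.17) higher and IKBKE (-2.43 ± 0.28) and STING1 (-1.17 ± 0.32) lower. MX1 and MX2 fell in HepG2 (-1.06 and -0.78) as they did in GM12878 vehicle cells at 6 h (-1.54 and -1.09). MX1 had only 28 and 5 counts after BRM014 in HepG2, against 28 and 47 after DMSO. IFITM2 and SP100, which rose in HepG2, were lower after BRM014 in those GM12878 cells. IFITM2 had 70.2 and 70.2 CPM there against 106 and 90.5 CPM after DMSO, and SP100 190 and 188 CPM against 212 and 208 CPM. The exposure differed and no test was made between the lines.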

How the data were processed

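PolyA-enriched RNA was sequenced from 43 libraries with a stranded kit, per the labels' protocols. Per the submitters' processing notes, STAR and RSEM were used with build hg38, and their versions, as well as the use of strand in counting, are not given in the sources used here. The deposited tables hold RSEM expected counts and TPM per gene, per the file headers. Between 2.48% and 4.74% of the gene values per library were not whole, and expected counts were rounded to whole numbers. The 746 identifiers that are not Ensembl genes were left out. Symbols came from GENCODE release 44.

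The 45 genes, their roles and the lists of 35 pathway genes and of cell markers were chosen with earlier results of these data known. In R 4.3.3, edgeR 4.0.16 was fitted apart for the panel (15 libraries), the pretreatment experiment (24) and HepG2 (4), with filterByExpr, TMM scaling and the robust quasi-likelihood test, 2-sided, with Benjamini-Hochberg adjustment over 15775, 15183 and 13349 genes. Both vehicles of the panel formed its control. A call is an adjusted p under 0.05, and the standard error is the absolute log2 fold change over the root of F. CPM are rounded counts scaled by TMM. The genes named are the highest and lowest of each role in the panel with IFNg, and elsewhere the most changed called genes, up to 4 in each direction, plus up to 8 pathway genes by adjusted p. Others were named after their values were seen. The fitting script was tested on simulated data. Alternatives were DESeq2 1.42.0, its size factors, no filter, a replicate block, only the compared groups, each library left out, 1 vehicle as control, CPM in place of TPM and a pseudocount of 0.1. Replicate libraries of every group differed by more than sampling noise. Values of a few genes of the pathway and marker lists are not reported here.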

Additional observations from a re-analysis of the deposited data

Results flagged for a closer look

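Differences of an effect between conditions, tested as such over all genes in edgeR with Benjamini-Hochberg adjustment, passed for 1 of the 45 genes for IFNg between arms at 1 h, 2 at 6 h, 8 for Dex between arms at 6 h and 17 for IFNg between times. Given here are those with the largest differences, up to 4 in each test, and IFIH1. The IFNg effect on IFIT2 at 1 h was smaller after BRM014 than after DMSO, by -0.79 ± 0.11 on the log2 scale (adjusted p = 0.00032). At 6 h the IFNg effect was larger after BRM014 for OAS2, by 0.51 ± 0.097 (adjusted p = 0.0174), and for IFIT3, by 0.63 ± 0.098 (adjusted p = 0.000781).

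The Dex effect at 6 h was less negative after BRM014 than after DMSO for CMPK2 (1.31 ± 0.29; adjusted p = 0.00557), IFIT1 (1.10 ± 0.27; adjusted p = 0.0493), XAF1 (0.87 ± 0.22; adjusted p = 0.0382) and IFIT2 (0.66 ± 0.12; adjusted p = 0.000801). The call of IFIT1 was lost without any 1 of the 8 libraries (adjusted p between 0.0626 and 0.19), and that of XAF1 without any 1 of 7 of them. IFIH1 had a difference of 0.62 ± 0.082 and the smallest adjusted p of the 8 genes (6.19e-06). The IFNg effect after DMSO was larger at 6 h than at 1 h for PARP9 (1.56 ± 0.12; adjusted p = 1.04e-08), PARP14 (1.08 ± 0.17; adjusted p = 0.00427), EPSTI1 (1.06 ± 0.095; adjusted p = 8.42e-09) and DDX60 (0.89 ± 0.12; adjusted p = 8.38e-06).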

How the results depend on the processing

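No fold change of the genes named by the rule above, outside the pathway list, changed direction under the alternatives run. The direction of other genes was not checked. With no filter on low counts, the called genes of the 45 numbered 2 with TNF, 7 with LPS and 2 with IL2 (0 each in the fits reported), 3 with IFNg at 1 h after BRM014 (1), 7 for the difference of the IFNg effect between arms at 6 h (2), 16 for that of the Dex effect (8) and 26 for the difference of the IFNg effect between times (17). With the replicate number as a block they were 1 with TNF, 12 with LPS, 2 with IL2 and 2 with IFNg at 1 h after BRM014. The numbers were not taken as pairing the libraries, since over all genes deviations of same-numbered libraries correlated between -0.0535 and 0.0441 in the panel and between -0.0686 and 0.0831 in the pretreatment experiment, and at -0.0944 in HepG2. In the panel the summed CPM of the 45 genes was nonetheless higher in replicate 2 in 7 of 7 groups. When the fit held just the groups compared, 2 were called with LPS, 1 with IL2 and 11 for the difference between times. With DESeq2's size factors 2 were called with IFNg at 1 h after BRM014. By DESeq2 4 were called for the IFNg difference between arms at 6 h and 9 in HepG2 (16). Ranked by CPM in place of TPM, 6 of the 10 highest tonic genes were the same. The cause was not tested for any of these, and the shares of all genes called in these alternative fits are not given here.

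With each library left out in turn, the counts ran from 0 to 1 with LPS and with IL2, 1 to 2 with IFNg at 1 h after BRM014, 9 to 17 with Dex at 6 h after BRM014 (18), 4 to 8 for BRM014 in IFNg cells at 1 h (8), 1 to 4 for the IFNg difference between arms at 6 h, 3 to 9 for the Dex difference, 10 to 18 for the difference between times, 2 to 3 for vehicle at 6 h over 1 h (4) and 9 to 17 in HepG2. They ran from 36 to 43 for IFNg and 24 to 32 for Dex in the panel, and from 42 to 43 for BRM014 in vehicle cells at 6 h. PARP14's difference between times was lost when the fit held just its own groups (adjusted p = 0.212). Few counts lie behind IFITM3 in GM12878 and behind several of these genes in HepG2, where 1 BRM014 library held 3.06 M counts in all.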

Other observations

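In the panel, the summed CPM of the 45 genes was higher in replicate 2 than in replicate 1 in 7 of 7 groups with 2 libraries, with a median log2 difference over the genes between 0.10 and 0.16. In the IFNg group the sum was 10566 CPM in replicate 2 and 9808 CPM in replicate 1, and in the PBS group 6560 and 6045 CPM. The same was seen in 2 of 12 groups of the pretreatment experiment and in 1 of 2 groups of HepG2. What the replicate numbers stand for is not given in the labels, and their part in the results was not tested beyond the fits with a replicate block.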
